A study of Mus musculus with 27 samples.

Results

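The CC chemokine system is described here through 10 genes, 8 ligands (Ccl2, Ccl3, Ccl4, Ccl5, Ccl6, Ccl7, Ccl9 and Ccl22) and 2 receptors (Ccr1 and the atypical receptor Ccrl2). They were taken by symbol from the 55483 genes of the count table. All 10 symbols were found, and all 10 passed the filter on low counts in every comparison. The cells were RAW264.7, an established macrophage line from a mouse tumour, so that every group came from 1 line. Cells were kept for 6 h in the solvent DMSO, in LPS at 1 µg/ml with DMSO, or in LPS at 1 µg/ml with TM7nox at 10 µM. LPS is a lipopolysaccharide of bacterial walls, and TM7nox is a tanshinone mimic, a small molecule of a series made to disturb the binding of RNA by the protein HuR. There was no group with TM7nox in the absence of LPS. Each treatment has 4 libraries of total RNA, 4 libraries of RNA recovered with an antibody to HuR (ribonucleoprotein immunoprecipitation, RIP) and 1 library recovered with control IgG, all 3 IgG libraries carrying replicate number 3. The labels do not say that replicates were separate cultures, and the p-values measure only the spread between these libraries.

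Chemokines are small secreted proteins that steer leukocytes along concentration gradients, and the CC family is named after a pair of adjacent cysteines near the start of the mature protein. They act through receptors coupled to G proteins. Ccl2 and Ccl7 attract monocytes through Ccr2, while Ccl3, Ccl5, Ccl6 and Ccl9 act on Ccr1. Ccl22 attracts T cells that carry Ccr4. Ccrl2 does not couple to G proteins and presents the attractant chemerin to other cells. In macrophages, LPS acts through Toll-like receptor 4 and NF-κB, which switches on many chemokine genes. HuR, encoded by Elavl1, binds stretches of mRNA rich in U or in A and U, often in the 3′ UTR, and is known to affect how long mRNAs last and how well they are translated.

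The 3′ UTRs of the 10 genes differed in length and in letters. They were read from the GENCODE M39 canonical transcripts on GRCm39. The pentamer ATTTA, the core of AU-rich elements, was searched on the transcript strand, with overlapping matches counted. Among the 10990 of 11213 tested coding genes that had a 3′ UTR of at least 50 bases, 73.5% held it, with a median of 2 matches and 1.38 matches per kilobase. Ccl3 held 5 in 409 bases, or 12.2 per kilobase, above 99.5% of those genes. Ccl4 held 2 in 302 bases (6.62 per kilobase), Ccl7 2 in 435, Ccl6 4 in 943, Ccl2 1 in 275 and Ccl9 5 in 2465. Ccrl2 held 2 in 860 bases, Ccl22 2 in 1813 and Ccr1 1 in 1300. Ccl5, with the shortest 3′ UTR of the 10 at 201 bases, held none. The longer AU-rich nonamer, which includes the pentamer and was present in 9.24% of those genes, was not found in any of the 10. The share of U was highest in Ccl2 (40.4%) and Ccl4 (37.1%) and lowest in Ccl5 (25.9%) and Ccl22 (26.4%), beside a median of 29.2% over the coding genes. The 30-base window with the most pentamers, then with the most T, is printed 5′ to 3′ as DNA for all 10 genes, since recovery with anti-HuR is set beside these letters. The first 3 are those called higher in RIP than in total RNA in at least 2 of the 3 treatments. Capitals mark ATTTA.
Ccl4: tattatttctattATTTAtgttttagttat
Ccl9: gtggatctcATTTActgATTTAtgtatgtt
Ccl3: tttaatactATTTAattttgtaATTTAttt
Ccl2: ttaattaatattaaacttATTTAacttatt
Ccl5: gggtttcttgattctgaccctgtatagctt
Ccl6: cttgtttttatagatATTTAaagcATTTAt
Ccl7: tctttaagttattaatatttttATTTAatt
Ccl22: tttggtattataagctatagttatATTTAt
Ccr1: taagagataggatctgtggttattaATTTA
Ccrl2: cATTTActactaagcgttgaatttgtctct
On GRCm39 the windows of Ccl4 (chr11:83555367-83555396), Ccl2 (chr11:81928026-81928055), Ccl7 (chr11:81938071-81938100) and Ccl22 (chr8:95477435-95477464) lie on the plus strand. Those of Ccl9 (chr11:83464055-83464084), Ccl3 (chr11:83538871-83538900), Ccl5 (chr11:83416767-83416796), Ccl6 (chr11:83479556-83479585), Ccr1 (chr9:123763171-123763200) and Ccrl2 (chr9:110884287-110884316) lie on the minus strand. The windows of Ccl3, Ccl6 and Ccl9 hold 2 pentamers each, that of Ccl5 holds none, and each of the others holds 1.

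Of the 10 genes, 7 lie on chromosome 11 in 2 groups. Ccl2 (chr11:81926397-81928279) and Ccl7 (chr11:81936532-81938351) are neighbours 8252 bases apart on the plus strand. The second group holds Ccl5 (chr11:83416602-83425942), Ccl9 (chr11:83463745-83473161), Ccl6 (chr11:83478708-83483913) and Ccl3 (chr11:83538670-83540191) on the minus strand and Ccl4 (chr11:83553383-83555509) on the plus strand. Ccl22 is at chr8:95471226-95478327 (plus strand), and Ccrl2 (chr9:110883554-110886591) and Ccr1 (chr9:123762161-123768734) are on the minus strand of chromosome 9. The exons of Ccl3 overlap those of Gm53692 on the other strand. Whether counting used the strand is not given in the sources used here, so reads of that overlap cannot be assigned with certainty. None of the exons of the other 9 genes overlapped another gene's exons in this annotation.

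The total RNA libraries held 2728534 to 28285856 counts (lowest: DMSO replicate 1), the RIP libraries 19816312 to 41449233 and the IgG libraries 8873091 to 24513902. Levels are given as CPM, the counts of a gene per 1000000 counts of a library, on 1 scale set by the TMM method, which assumes that most genes do not differ. Elavl1 was 90.2 ± 18.5 CPM (SD, n = 4) in total RNA of DMSO cells, 109 ± 15.9 with LPS and 92.1 ± 10.4 with LPS and TM7nox, and its own mRNA was 27.2 to 31.8 times its total RNA level in same-numbered RIP libraries of DMSO cells. Of 10 macrophage markers, 9 reached a mean of 1 CPM in total RNA, with a summed level of 3609 to 7094 CPM per library. None of the 4 fibroblast, 4 epithelial, 3 endothelial or 5 neutrophil markers did, and 3 of the neutrophil and 2 of the epithelial markers had no count in any of these libraries. The neutrophil sum moved with the treatments, at 0 to 0.154 CPM in DMSO, 1.56 to 3.25 with LPS and 0.0316 to 0.477 with TM7nox, and the part of this and the next lists in the results was not tested. Among T cell, B cell and dendritic cell markers, Lck, Pax5, Xcr1 and Zbtb46 reached 1 CPM, and their sums moved too. T cell markers summed to 1.35 to 4.03 CPM in DMSO, 7.42 to 8.95 with LPS and 9.04 to 12.4 with TM7nox, B cell markers to 0 to 0.225, 1.78 to 3.98 and 1.62 to 4.30, and dendritic cell markers to 1.71 to 2.97, 6.36 to 10.4 and 5.00 to 7.94.

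In DMSO, the family was carried by 4 ligands. CPM values were divided by the length of each gene's exons for comparisons between genes. On that scale Ccl3 was 224 ± 201 CPM per kilobase (mean ± SD, n = 4), Ccl9 105 ± 42.2, Ccl4 72.6 ± 47.1 and Ccl2 24.9 ± 22.4, and the libraries of each gene overlapped those of the next. Ccl5 followed at 2.02 ± 1.37, below all Ccl2 libraries. The other 5 genes were under 1 CPM per kilobase on average, with Ccl7 and Ccl22 lowest at 0.0959 ± 0.0984 and 0.0402 ± 0.0427. In DMSO replicate 1, the shallowest library, Ccl6, Ccl7 and Ccl22 had no counts. With LPS the order in total RNA was Ccl3 (5289.7 ± 1386 CPM per kilobase), Ccl4 (1320.5 ± 145), Ccl5 (1269 ± 183), Ccl2 (1022 ± 241) and Ccl9 (912 ± 134). Ccl3 lay above the other 4 in every library, while each of Ccl4, Ccl5 and Ccl2 overlapped the next gene in the order. Ccl7 (51.8 ± 21.8) overlapped Ccl22 (43.1 ± 16.8), and Ccrl2 (18.7 ± 2.20), Ccl6 (6.03 ± 1.63) and Ccr1 (4.09 ± 1.94) came last, the last pair overlapping. Ccl5 thus went from below Ccl2 in every DMSO library to levels that overlapped those of Ccl4 and Ccl2 with LPS.

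**Figure D1:**
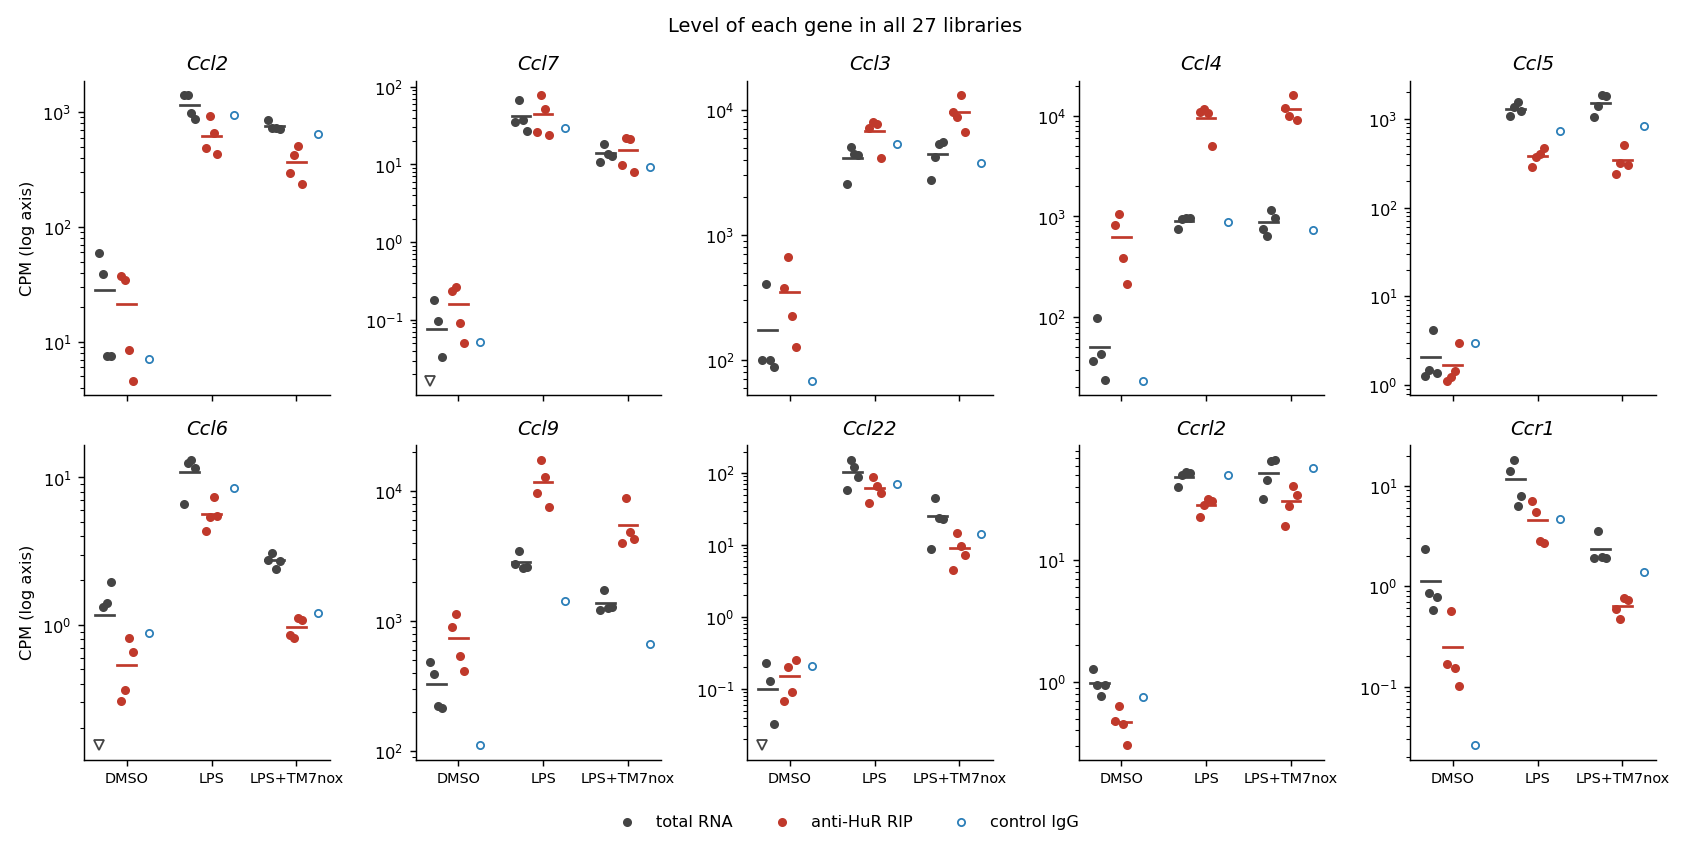
Level of each of the 10 genes in CPM (log axis) in every library, by treatment; filled points are total RNA (grey) and anti-HuR RIP (red), open circles are IgG (1 library per treatment), lines are group means of 4 libraries, and open triangles mark libraries with no count. With LPS, total RNA of all 10 genes lies above DMSO in every library, and the RIP points of Ccl4 and Ccl9 lie above their total RNA points in LPS, 4966 to 11645 against 759 to 966 CPM for Ccl4.

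LPS raised all 10 genes in total RNA, and no library of the LPS group overlapped the DMSO group for any of them. Over all 12369 genes tested, 20.2% were called higher with LPS, called meaning an adjusted p under 0.05 in edgeR's quasi-likelihood test with Benjamini-Hochberg adjustment over all genes tested. The median log2 fold change of the 10 was 4.95, beside -0.04 over all genes. In RNA from bulk cultures, a change in the number of cells that express a gene and a change in RNA per cell cannot be told apart.

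Among the ligands that attract monocytes, Ccl2 was at 59.6, 38.9, 7.50 and 7.46 CPM in DMSO replicates 1 to 4 and at 1399.6, 1395, 989 and 869 with LPS. DMSO replicates 1 and 2 were higher than 3 and 4, and all 4 were far below every LPS library. The log2 fold change was 5.37 ± 0.62 (adjusted p = 9.56e-06), ± giving the standard error. Over the alternatives it ran from 4.84 with replicates 1 and 2 alone to 6.96 with replicates 3 and 4 alone, and it was 6.01 without DMSO replicate 1. Its neighbour Ccl7, which shares the receptor Ccr2, was at 0, 0.180, 0.0965 and 0.0329 CPM in DMSO and at 34.9, 67.4, 37.6 and 27.3 with LPS. Ccl7 was thus near the limit of detection without LPS. Its log2 fold change was 8.59 ± 0.46 (adjusted p = 5.71e-09), and with 11 counts over the 4 DMSO libraries its size depends on few reads, being 9.31 without DMSO replicate 2. In the LPS libraries Ccl7 had 0.0250 to 0.0483 counts for each Ccl2 count.

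Ccl3 and Ccl4, inflammatory ligands that many stimulated leukocytes release, were already expressed in DMSO. Ccl3 was at 100.0, 408, 101 and 87.3 CPM in DMSO, with replicate 2 standing above the other 3, and at 2564, 5065, 4444 and 4346 with LPS. Its log2 fold change was 4.54 ± 0.50 (adjusted p = 5.77e-06), beside 3.94 with replicates 1 and 2 alone, 5.55 with replicates 3 and 4 alone and 5.37 without DMSO replicate 2. Ccl4 went from 36.2, 96.9, 42.8 and 23.6 to 759, 942, 962 and 966 CPM, and the LPS libraries lay close together except replicate 1. Its log2 fold change was 4.15 ± 0.37 (adjusted p = 7.22e-07), and 4.86 with replicates 3 and 4 alone. Ccl5, which also acts on Ccr1, was at 1.27, 1.47, 4.18 and 1.38 CPM in DMSO and at 1091, 1349, 1536 and 1239 with LPS. That is a log2 fold change of 9.18 ± 0.42 (adjusted p = 2.26e-09), from a few CPM to levels near those of Ccl4. It was 9.78 with replicates 1 and 2 alone and 9.84 without DMSO replicate 3.

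Ccl9 and Ccl6, ligands of Ccr1 encoded next to each other, rose less on the log2 scale. Ccl9 was at 482, 389, 223 and 212 CPM in DMSO and 2752, 3452, 2549 and 2598 with LPS, a log2 fold change of 3.08 ± 0.27 (adjusted p = 7.31e-07). Ccl6 was at 0, 1.31, 1.42 and 1.94 CPM in DMSO and 6.63, 12.5, 13.2 and 11.5 with LPS, with a log2 fold change of 2.99 ± 0.38 (adjusted p = 2.3e-05). These neighbours rose by log2 amounts that lay within their standard errors of each other, at very different levels. Ccl22, the ligand of Ccr4, went from 0, 0.232, 0.129 and 0.0329 to 58.9, 154, 121 and 87.8 CPM, with a log2 fold change of 9.58 ± 0.67 (adjusted p = 7.28e-08). It was at or near 0 without LPS, with 14 counts over the 4 libraries, and its log2 fold change was 10.26 with replicates 3 and 4 alone and 10.34 without DMSO replicate 2.

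Both receptors rose from about 1 CPM. Ccrl2 was at 1.27, 0.953, 0.772 and 0.953 CPM in DMSO and 40.4, 50.004, 52.9 and 52.1 with LPS, with a narrow spread and a log2 fold change of 5.70 ± 0.27 (adjusted p = 2.67e-09). Ccr1, the receptor of Ccl3, Ccl5, Ccl6 and Ccl9, was at 2.33, 0.850, 0.579 and 0.789 CPM in DMSO and 13.9, 18.2, 6.25 and 7.99 with LPS. The log2 fold change of Ccr1 was 3.64 ± 0.46 (adjusted p = 2.27e-05), and LPS replicates 1 and 2 were higher than 3 and 4. The 10 genes together took 0.0894% ± 0.0419 (SD, n = 4) of all counts in DMSO and 1.28% ± 0.163 with LPS. Within that sum, the share of Ccl9 was 58.5% in DMSO and 27.1% with LPS, while the share of Ccl5 was 0.463% and 12.4%.

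With TM7nox added to LPS, 5 of the 10 genes were lower in total RNA and 5 were not called. Ccl7, Ccl6, Ccl9, Ccl22 and Ccr1 fell, while Ccl2, Ccl3, Ccl4, Ccl5 and Ccrl2 did not pass the test. Over all genes tested, 6.40% were called lower and 7.37% higher, and no member was called higher. With the replicate number as a block, the same 5 genes were called, while the share of all genes called in either direction was 25.0%, beside 13.8% without it. With replicates 1 and 2 alone none of the 10 was called (adjusted p of the 5 genes 0.058 to 0.347, 1.35% of all genes called), although the 5 log2 fold changes stayed between -2.55 and -1.08.

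Ccl22 was at 8.79, 44.9, 23.96 and 22.8 CPM in LPS+TM7nox replicates 1 to 4, beside 58.9 to 154 with LPS. Every library with TM7nox lay below every library with LPS alone, and the log2 fold change was -2.06 ± 0.40 (adjusted p = 0.00353). The group means were 25.1 ± 14.9 CPM with TM7nox and 105 ± 41.02 with LPS alone. Ccr1 was at 1.90, 3.56, 1.96 and 1.91 CPM beside 6.25 to 18.2, without overlap, and the log2 fold change was -2.31 ± 0.40 (adjusted p = 0.00166). Its mean of 2.33 ± 0.819 CPM lay closer to the 1.14 ± 0.805 of DMSO than to the 11.6 ± 5.50 of LPS. Ccl6 was at 2.77, 3.08, 2.40 and 2.72 CPM, also below every LPS library, with a log2 fold change of -1.99 ± 0.35 (adjusted p = 0.00181).

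Ccl7 was at 10.7, 18.5, 13.8 and 12.8 CPM with TM7nox, again without overlap with LPS, and its log2 fold change was -1.58 ± 0.27 (adjusted p = 0.00148). Ccl9, the most abundant of the 5, was at 1207, 1723, 1255 and 1285 CPM, below all LPS libraries, and its log2 fold change of -1.05 ± 0.25 (adjusted p = 0.0135) was the smallest of the 5. Ccl2 was at 854, 729, 726 and 714 CPM, and here too every library lay below the LPS libraries. Its log2 fold change of -0.62 ± 0.51 did not pass the test (adjusted p = 0.497). Ccl2 was called without the filter on low counts (-0.62, adjusted p = 0.00284) and with replicates 3 and 4 alone (-0.35, adjusted p = 0.0205).

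For Ccl3, Ccl4, Ccl5 and Ccrl2, the TM7nox libraries overlapped those of LPS. Ccl3 was at 2746, 4224, 5323 and 5525 CPM (log2 fold change 0.12 ± 0.43, adjusted p = 0.897). Ccl4 was at 749, 644, 1148 and 973 CPM (-0.04 ± 0.32, adjusted p = 0.954). Ccl5 was at 1043, 1387, 1843 and 1791 CPM (0.22 ± 0.29, adjusted p = 0.698). Each of these 3 values had either sign among the alternatives, and a test that is not passed does not show that the levels were alike. Ccrl2 was at 31.8, 45.9, 65.7 and 67.4 CPM (0.11 ± 0.20, adjusted p = 0.785), with replicates 3 and 4 above the range of LPS, replicate 2 inside it and replicate 1 below it. With replicates 3 and 4 alone it was called higher, at 0.36 (adjusted p = 0.0119), where 27.9% of all genes were called in either direction.

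Ratios of 2 genes inside a library do not depend on the scaling between libraries, and they are given as a description with no test. In each pair below, the first gene was called lower with TM7nox in total RNA and the second was not called. Lower ratios with TM7nox thus repeat those results in the same libraries and add no separate evidence. Counts of Ccl9 over Ccl3 were 0.573 to 1.07 in the 4 LPS libraries and 0.233 to 0.439 with TM7nox. Counts of Ccl7 over its neighbour Ccl2 were 0.0250 to 0.0483 with LPS and 0.0125 to 0.0254 with TM7nox. Ccl22 over Ccl5 was 0.0540 to 0.114 and 0.00843 to 0.0323, and Ccr1 over Ccrl2 was 0.118 to 0.364 and 0.0284 to 0.0776. Of these 4 ratios, those of Ccl9, Ccl22 and Ccr1 did not overlap between the groups, while that of Ccl7 over Ccl2 overlapped at 0.0250 against 0.0254.

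LPS with TM7nox was also compared with DMSO, a comparison that shares its libraries with the 2 above. All 10 genes were called higher in total RNA, where 23.7% of all genes were. Ccl5 (9.40 ± 0.42), Ccl22 (7.52 ± 0.66), Ccl7 (7.01 ± 0.46) and Ccrl2 (5.81 ± 0.27) had the largest log2 fold changes, with adjusted p of at most 5.73e-07. Without DMSO replicate 3 that of Ccl5 was 10.06, and without DMSO replicate 2 those of Ccl22 and Ccl7 were 8.28 and 7.73. The smallest were those of Ccl6, 1.00 ± 0.37 (adjusted p = 0.0406), and Ccr1, 1.34 ± 0.46 (adjusted p = 0.0262), and only Ccr1 overlapped between the groups. With total counts in place of TMM these 2 were not called (0.70 and 1.02, adjusted p = 0.122 and 0.0876), nor with replicates 1 and 2 alone (1.73 and 1.06, adjusted p = 0.157 and 0.273). The call of Ccl6 was also lost when DMSO replicate 2 or 3 or LPS+TM7nox replicate 2, 3 or 4 was left out (0.94 to 1.06, adjusted p 0.0547 to 0.0862), and that of Ccr1 without DMSO replicate 2, 3 or 4 or LPS+TM7nox replicate 2 (1.05 to 1.28, adjusted p 0.0704 to 0.0915).

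**Figure D2:**
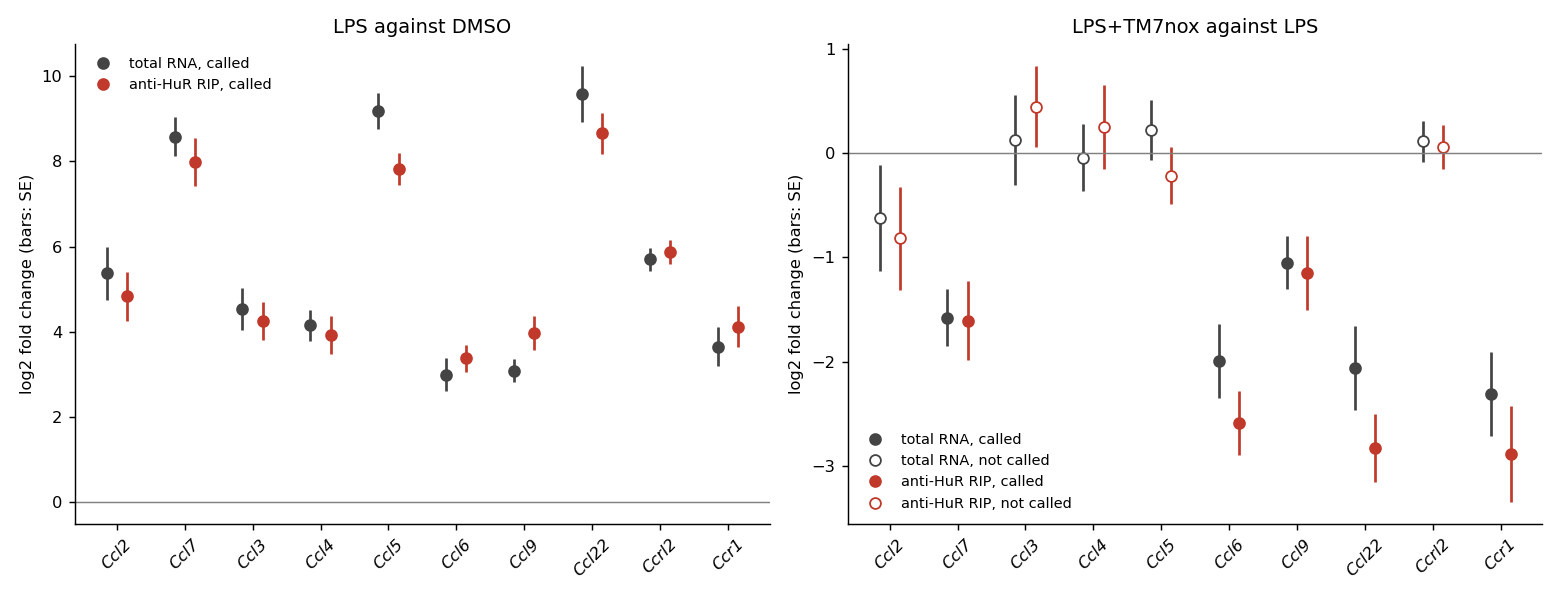
Log2 fold change (y axis, ± SE) of each gene with LPS against DMSO (left) and with LPS+TM7nox against LPS (right), in total RNA (grey) and anti-HuR RIP (red); filled points were called at an adjusted p under 0.05 in edgeR, open points were not. All 10 genes lie above 0 on the left, and on the right Ccl7, Ccl6, Ccl9, Ccl22 and Ccr1 lie below 0 in both assays, between -2.88 and -1.05.

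RNA recovered with anti-HuR gave the same calls as total RNA for both of these contrasts. With LPS all 10 genes were higher in RIP, where 23.5% of the 13614 genes tested were, and no library overlapped DMSO. The log2 fold changes ran from 3.37 ± 0.31 (adjusted p = 3.87e-07) for Ccl6 to 8.66 ± 0.48 (adjusted p = 1.34e-09) for Ccl22, and with total counts in place of TMM from 2.73 to 8.03. With TM7nox added, Ccl22 (-2.83 ± 0.33, adjusted p = 4.11e-05), Ccr1 (-2.88 ± 0.46, adjusted p = 0.000649), Ccl6 (-2.58 ± 0.31, adjusted p = 5.29e-05), Ccl7 (-1.60 ± 0.38, adjusted p = 0.00961) and Ccl9 (-1.15 ± 0.35, adjusted p = 0.0359) fell, the same 5 genes as in total RNA. None was called higher. Over all genes, 7.61% were called lower, and the share called in either direction was 16.2% without and 33.6% with the replicate block.

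In RIP, Ccl22 was at 38.1, 87.9, 66.4 and 53.7 CPM with LPS and 4.46, 14.5, 9.63 and 7.29 with TM7nox. Ccr1 was at 7.12, 5.52, 2.80 and 2.72 CPM with LPS, where replicates 1 and 2 were again the higher ones, and at 0.595, 0.474, 0.759 and 0.720 with TM7nox. Ccl6 was at 4.30, 5.41, 7.35 and 5.50 CPM with LPS and 0.849, 0.813, 1.12 and 1.08 with TM7nox. The groups did not overlap for these 3 genes. The log2 fold change of Ccr1 was -3.57 with replicates 1 and 2 alone and -1.90 with replicates 3 and 4 alone. Ccl7 was at 25.8, 77.5, 51.9 and 24.2 CPM with LPS and 9.81, 21.9, 21.1 and 7.92 with TM7nox, also without overlap. With only replicates 1 and 2, or only replicates 3 and 4, Ccl7 was no longer called (-1.74 and -1.39, adjusted p = 0.0537 and 0.062).

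Ccl9 was at 9633, 17534, 12881 and 7525 CPM with LPS and at 3984, 8916, 4847 and 4327 with TM7nox, where replicate 2 overlapped the LPS range. Its call was lost without LPS replicate 1, 2 or 3 or LPS+TM7nox replicate 1, 3 or 4 (adjusted p 0.0534 to 0.107), at log2 fold changes of -1.22 to -0.88. It was also lost with replicates 1 and 2 alone (-1.10, adjusted p = 0.212) and with replicates 3 and 4 alone (-1.15, adjusted p = 0.0667). In same-numbered libraries Ccl9 was lower with TM7nox in 4 of 4 pairs. Ccl2 was at 483, 918, 659.6 and 435 CPM with LPS and 295, 425, 511 and 236 with TM7nox, overlapping, and its log2 fold change was -0.82 ± 0.49 (adjusted p = 0.28). It was called without the filter on low counts (-0.83, adjusted p = 0.00699). Ccl3 (0.45 ± 0.39, adjusted p = 0.475), Ccl4 (0.25 ± 0.40, adjusted p = 0.717), Ccl5 (-0.22 ± 0.27, adjusted p = 0.638) and Ccrl2 (0.06 ± 0.21, adjusted p = 0.876) did not pass the test.

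Compared with DMSO, LPS with TM7nox raised 8 of the 10 in RIP, where 25.1% of all genes were called higher. The 2 exceptions were Ccl6 (0.79 ± 0.33, adjusted p = 0.0592) and Ccr1 (1.24 ± 0.53, adjusted p = 0.0621). Both were called with the replicate block (adjusted p = 0.0183 and 0.0248). Ccr1 was called as well with DESeq2 (1.23, adjusted p = 0.0461), without the filter on low counts (1.25, adjusted p = 0.0338) and with replicates 3 and 4 alone (2.36, adjusted p = 0.00699). Ccl6 was also called without DMSO replicate 3 (1.04, adjusted p = 0.0253) and Ccr1 without DMSO replicate 2 (2.01, adjusted p = 0.00568), the library that stood above the other 3 at 0.562 CPM.

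Recovery with anti-HuR, relative to total RNA, differed widely within the family. Ccl4 and Ccl9 were recovered above total RNA in all 3 treatments, Ccl6, Ccrl2 and Ccr1 below it, and Ccl5 below it with LPS. On the TMM scale a log2 ratio of 0 stands for the typical gene, not for an equal amount of RNA. With LPS, 32.9% of the 14311 genes tested were called higher in RIP than in total RNA and 30.8% lower, so that a call in itself sets no gene apart. With total counts per library in place of TMM, the numbers called higher and lower went from 4708 and 4401 to 2833 and 8134. Of the members, 2 were called higher and 4 lower with LPS in this fit without a block. The block by treatment and number also called Ccl3 higher and Ccl2 and Ccl22 lower there. Over all genes, 9689 were then called in either direction, beside 9109 without it. In DMSO 3 were called higher and 3 lower (37.0% and 33.4% of all genes), and with TM7nox 3 higher and 5 lower (35.2% and 34.8%).

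Ccl4 had the largest ratio. Same-numbered RIP over total RNA levels of Ccl4 were 22.8, 10.8, 9.13 and 8.99 in DMSO, 14.3, 12.4, 11.1 and 5.14 with LPS and 16.0, 15.5, 14.0 and 9.32 with TM7nox, for replicates 1 to 4. Every RIP library lay above every total RNA library of its treatment. The log2 RIP over RNA was 3.74 ± 0.45 (adjusted p = 5.99e-08), 3.39 ± 0.44 (adjusted p = 2.98e-07) and 3.70 ± 0.45 (adjusted p = 6.93e-08) in DMSO, LPS and LPS+TM7nox. LPS replicate 4 gave the lowest ratio, with 4966 CPM in RIP beside 10690 to 11645 in the other 3. In RIP with LPS, Ccl4 stood first in the order per kilobase at 13878 ± 4475 CPM per kilobase, above Ccl3 at 8755 ± 2329 and Ccl9 at 3821 ± 1400.1, with overlap between neighbours in that order.

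Counts of Ccl4 over those of Ccl3, the ligand 13191 bases away, need no scaling between libraries. They were 0.238 to 0.424, 0.186 to 0.296 and 0.152 to 0.273 in total RNA of the 3 treatments, and 1.57 to 2.18, 1.20 to 1.51 and 1.12 to 1.35 in RIP. The 3 IgG libraries had 0.341, 0.165 and 0.195. No total RNA or IgG library came near the RIP libraries in this ratio. Ccl4 had the largest RIP over RNA of the 10 genes, so a higher ratio in RIP repeats that result.

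Ccl9 had ratios of 1.85, 2.93, 2.40 and 1.94 in DMSO, 3.50, 5.08, 5.05 and 2.90 with LPS and 3.30, 5.17, 3.86 and 3.37 with TM7nox. The log2 values were 1.34 ± 0.32 (adjusted p = 0.00064), 2.07 ± 0.33 (adjusted p = 5.82e-06) and 1.98 ± 0.33 (adjusted p = 7.88e-06). In LPS and in LPS+TM7nox the RIP libraries lay above all total RNA libraries, while in DMSO they overlapped, and with total counts in place of TMM Ccl9 was not called in DMSO (0.50, adjusted p = 0.139). Ccl3 had ratios of 1.46 to 3.78, 0.953 to 2.81 and 1.22 to 3.50. It was called higher in DMSO (1.12 ± 0.46, adjusted p = 0.0324) and with TM7nox (1.05 ± 0.46, adjusted p = 0.0431) and not with LPS (0.72 ± 0.45, adjusted p = 0.169). In LPS it was called with the block by treatment and number (0.73, adjusted p = 0.023) and without the filter on low counts (0.65, adjusted p = 0.00753). With total counts in place of TMM, Ccl3 was not called in any treatment, at 0.39 in DMSO (adjusted p = 0.402), -0.28 with LPS and 0.11 with TM7nox (adjusted p = 0.815). The DMSO call was lost with replicates 1 and 2 alone (1.09, adjusted p = 0.137), and the TM7nox call with either pair of replicates (1.39 and 0.77, adjusted p = 0.0619 and 0.0534). The DMSO call of Ccl3 was lost without total RNA replicate 1, 3 or 4 or RIP replicate 1 or 2 (0.58 to 1.08, adjusted p 0.0581 to 0.263), and the TM7nox call without total RNA replicate 1 or 2 or RIP replicate 3 (0.85 to 1.02, adjusted p 0.0819 to 0.128).

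Ccl5 went the other way with LPS. Its ratios were 0.879, 0.834, 0.341 and 2.18 in DMSO, 0.266, 0.279, 0.262 and 0.380 with LPS and 0.231, 0.230, 0.278 and 0.167 with TM7nox. In DMSO, at 1 to 4 CPM, the ratios lay on either side of 1 and the log2 value of -0.32 ± 0.37 was not called (adjusted p = 0.449). With LPS and with TM7nox all RIP libraries lay below all total RNA libraries, at -1.76 ± 0.32 (adjusted p = 3.07e-05) and -2.20 ± 0.32 (adjusted p = 1.38e-06). Counts of Ccl9 over Ccl5 were 1.66 to 2.56 in total RNA with LPS and 16.0 to 46.5 in RIP. The lowest of the RIP ratios was thus far above the highest in total RNA. Ccl9 was called higher and Ccl5 lower in RIP than in total RNA with LPS, so this ratio repeats those calls.

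Relative to total RNA, both receptors and Ccl6 were recovered below the typical gene in each treatment, though against the IgG libraries Ccr1 (0.02 ± 0.39, adjusted p = 0.974) and Ccl6 (-0.53 ± 0.26, adjusted p = 0.0921) were not called. Ccr1 was called lower in DMSO (-1.73 ± 0.53), LPS (-1.33 ± 0.39) and LPS+TM7nox (-1.90 ± 0.47), with adjusted p of at most 0.00555. Ccrl2 was called lower at -0.87 ± 0.33, -0.78 ± 0.23 and -0.83 ± 0.23 (adjusted p at most 0.0231), the DMSO call being lost with DESeq2's size factors (-0.67, adjusted p = 0.0666), without RIP replicate 4 (-0.75, adjusted p = 0.0622) and with replicates 1 and 2 alone (-0.82, adjusted p = 0.124). With LPS its 4 ratios lay within 0.560 to 0.603, a narrow range for this family. Ccl6 was called lower at -1.26 ± 0.39, -0.97 ± 0.33 and -1.53 ± 0.38 (adjusted p at most 0.0127), and with replicates 1 and 2 alone it was not called in DMSO (-1.40, adjusted p = 0.125) or with LPS (-1.01, adjusted p = 0.179). Ccl22 was called lower with TM7nox (-1.54 ± 0.40, adjusted p = 0.00139) and not with LPS (-0.78 ± 0.38, adjusted p = 0.0747), but there too with the replicate block (-0.74, adjusted p = 0.000164) and without total RNA replicate 1 or RIP replicate 2 (-1.01 and -0.99, adjusted p = 0.0274 and 0.0389). In LPS Ccl22 was also called without the filter (-0.85, adjusted p = 0.000239), with total counts (-1.79, adjusted p = 6.2e-05) and with replicates 3 and 4 alone (-0.83, adjusted p = 0.00339), while its TM7nox call was lost with replicates 1 and 2 alone (-1.58, adjusted p = 0.0875).

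Ccl2 was not called in any treatment (-0.19 ± 0.53, -0.89 ± 0.52 and -1.07 ± 0.53, adjusted p = 0.769, 0.14 and 0.0709), although with the block by treatment and number it was called lower with LPS (-0.92, adjusted p = 8.9e-05) and with TM7nox (-1.13, adjusted p = 8.1e-06). With the block by number alone it was called with TM7nox (-1.12, adjusted p = 0.0157). Without the filter, with total counts and with either pair of replicates, Ccl2 was called lower both with LPS (-1.94 to -0.80, adjusted p at most 0.0339) and with TM7nox (-2.08 to -1.05, adjusted p at most 0.00737). Ccl7 was not called in any treatment either (0.76 ± 0.87, 0.10 ± 0.35 and 0.08 ± 0.36, adjusted p = 0.445, 0.822 and 0.853). With total counts in place of TMM its sign turned in the treated groups, and it was called lower with LPS (-0.94, adjusted p = 0.0142) and with TM7nox (-0.91, adjusted p = 0.0183).

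Total counts in place of TMM moved the log2 RIP over RNA of the called members downward, as they did the median of all genes (to -0.72, -1.06 and -1.07 in DMSO, LPS and LPS+TM7nox). In these 3 treatments Ccl4 was then at 2.99, 2.38 and 2.74, and Ccl9 at 1.04 and 0.95 in the last 2. Ccl6 was at -1.96, -1.96 and -2.51, Ccrl2 at -1.59, -1.78 and -1.80 and Ccr1 at -2.49, -2.35 and -2.86. Ccl5 was at -2.76 with LPS and -3.16 with TM7nox, where Ccl22 was at -2.54. Without RIP DMSO replicate 2, Ccr1 in DMSO was at -2.54 on the TMM scale, and without total RNA DMSO replicate 2, Ccl3 in DMSO was at 1.99.

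**Figure D3:**
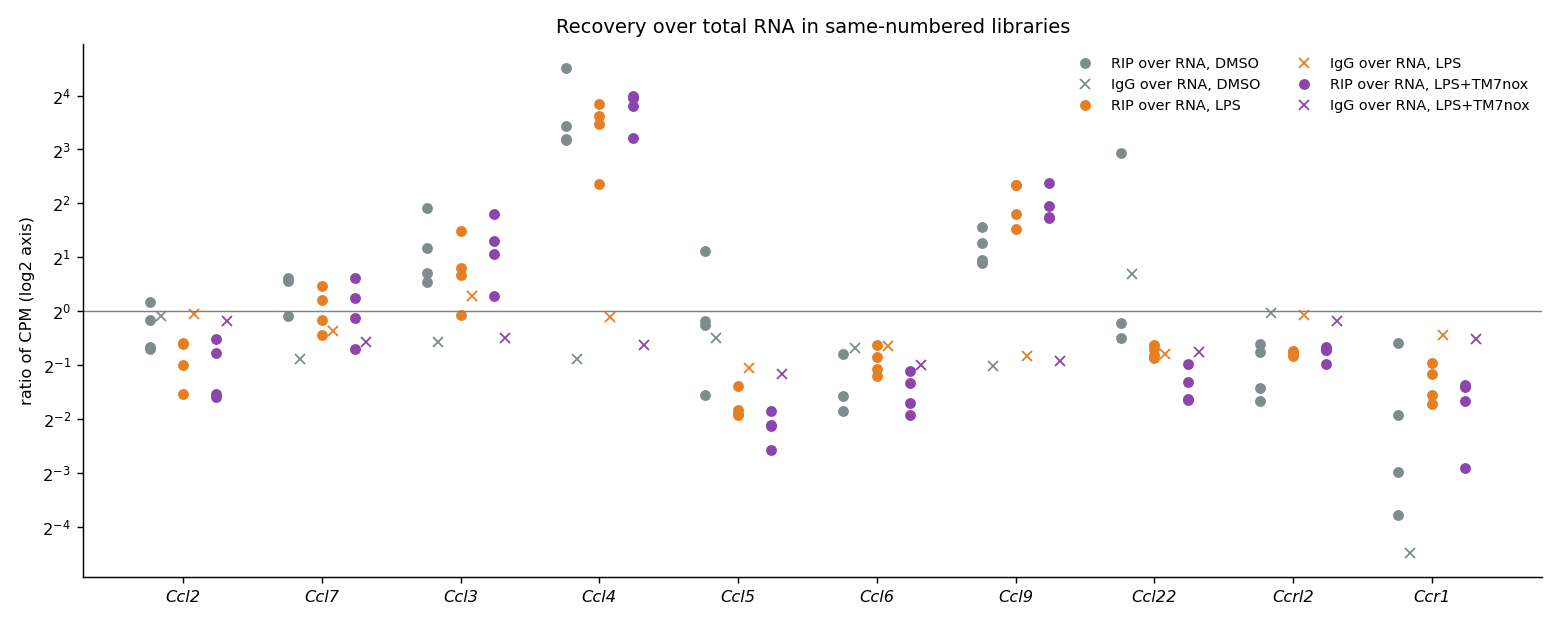
Ratio of CPM (log2 axis) in same-numbered libraries for each gene and treatment; points are anti-HuR RIP over total RNA, 4 per treatment (3 in DMSO for Ccl6, Ccl7 and Ccl22, which had no total RNA count in replicate 1), and crosses are IgG over total RNA for replicate 3. Ccl4 lies between 5.14 and 22.8 and Ccl9 between 1.85 and 5.17, while the IgG crosses of both genes lie below 1.

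The 3 IgG libraries give the background of the recovery. For Ccl4 and Ccl9, the IgG levels lay nearer to total RNA than to RIP. Ccl4 was at 23.2, 889 and 739.8 CPM in IgG of DMSO, LPS and LPS+TM7nox, and RIP replicate 3 was 16.8, 12.03 and 21.7 times that. Ccl9 was at 110.0, 1438 and 660.1 CPM in IgG, with RIP over IgG of 4.86, 8.96 and 7.34. For Ccl3 the RIP over IgG ratios were 3.32, 1.44 and 3.46, smaller and least with LPS. For Ccl5 they were 0.482, 0.546 and 0.621, and for Ccrl2 0.604, 0.629 and 0.715, below 1 in each treatment. IgG over total RNA was 0.708, 0.479 and 0.447 for Ccl5 and 0.976, 0.958 and 0.877 for Ccrl2. The low RIP over RNA of Ccl5 with LPS and with TM7nox was thus seen in part with control IgG as well. Ccl6 had RIP over IgG of 0.928, 0.868 and 0.929, and its IgG level was itself 0.624, 0.642 and 0.501 times total RNA. For Ccr1, RIP over IgG was 0.603 with LPS and 0.551 with TM7nox, and IgG over total RNA 0.742 and 0.702.

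Over the 12 RIP and 3 IgG libraries, with treatment as a covariate, Ccl4 (4.02 ± 0.48, adjusted p = 1.56e-07), Ccl9 (3.01 ± 0.37, adjusted p = 2.78e-07) and Ccl3 (1.23 ± 0.42, adjusted p = 0.0152) were called higher with anti-HuR. Ccl5 (-0.98 ± 0.23, adjusted p = 0.000902) and Ccrl2 (-0.79 ± 0.19, adjusted p = 0.00102) were called lower. The other 5 were not called, Ccl7 at 0.74 ± 0.38, Ccr1 at 0.02 ± 0.39, Ccl2 at -0.15 ± 0.46, Ccl22 at -0.40 ± 0.29 and Ccl6 at -0.53 ± 0.26 (adjusted p 0.0921 to 0.974). Of all 18282 genes tested, 29.8% were called higher and 28.1% lower. The call of Ccl3 was lost without the IgG library of DMSO (0.80, adjusted p = 0.146) or of LPS+TM7nox (1.10, adjusted p = 0.0824) and with total counts (0.13, adjusted p = 0.763), and its value was 1.88 without that of LPS. With total counts Ccl4 was at 2.92, Ccl9 at 1.89, Ccl5 at -2.10 and Ccrl2 at -1.90. With replicate 3 alone, which pairs each IgG library with its RIP library, Ccl7 was also called higher (1.12, adjusted p = 4.9e-07), and so it was without RIP LPS replicate 4 (0.91, adjusted p = 0.0336) and without the filter on low counts (0.82, adjusted p = 0.00321). Ccl6 was called lower without RIP DMSO replicate 3 (-0.62, adjusted p = 0.047). Ccr1 in IgG of DMSO rested on 1 count.

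Whether a treatment changed recovery relative to total RNA was tested by an interaction over the 24 total RNA and RIP libraries. None of the 10 was called in edgeR for LPS against DMSO, where 0.0419% of all genes were, nor for LPS+TM7nox against LPS, where 0.00699% were. At an unadjusted p under 0.05 there was 1 member in the first, Ccl5, and 0 in the second, and DESeq2 called 0 in both. For LPS against DMSO the values ran from -1.44 ± 0.48 (adjusted p = 0.512) for Ccl5 to 0.73 ± 0.45 (adjusted p = 0.792) for Ccl9. Ccl5 was called without the filter on low counts (-1.30, adjusted p = 0.039). As a description, same-numbered ratios of Ccl9 rose and those of Ccl2, Ccl3 and Ccl5 fell from DMSO to LPS in every pair. Those of Ccl22 fell in the pairs that had a ratio, and the other genes went both ways. For LPS+TM7nox against LPS the log2 values of the test ran from -0.76 ± 0.55 (adjusted p = 0.875) for Ccl22 to 0.33 ± 0.64 (adjusted p = 0.943) for Ccl3. The standard errors of the 10 genes in this last comparison were 0.32 to 0.73 in the fit without a block, where a moderate change of recovery was not detectable. The block by number and that by treatment and number called 50 and 39 genes for LPS, beside 6, and 2 and 2 for TM7nox, beside 1. Ccl5 and Ccl9 in the first comparison and Ccl22 and Ccl3 in the second were not called with either block. Same-numbered ratios of Ccl6 and Ccl22 fell and those of Ccl3 and Ccl4 rose with TM7nox in every pair. The other genes went both ways. The falls of the 5 genes with TM7nox in RIP, set beside those in total RNA, were thus not shown to differ from them.

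**Figure D4:**
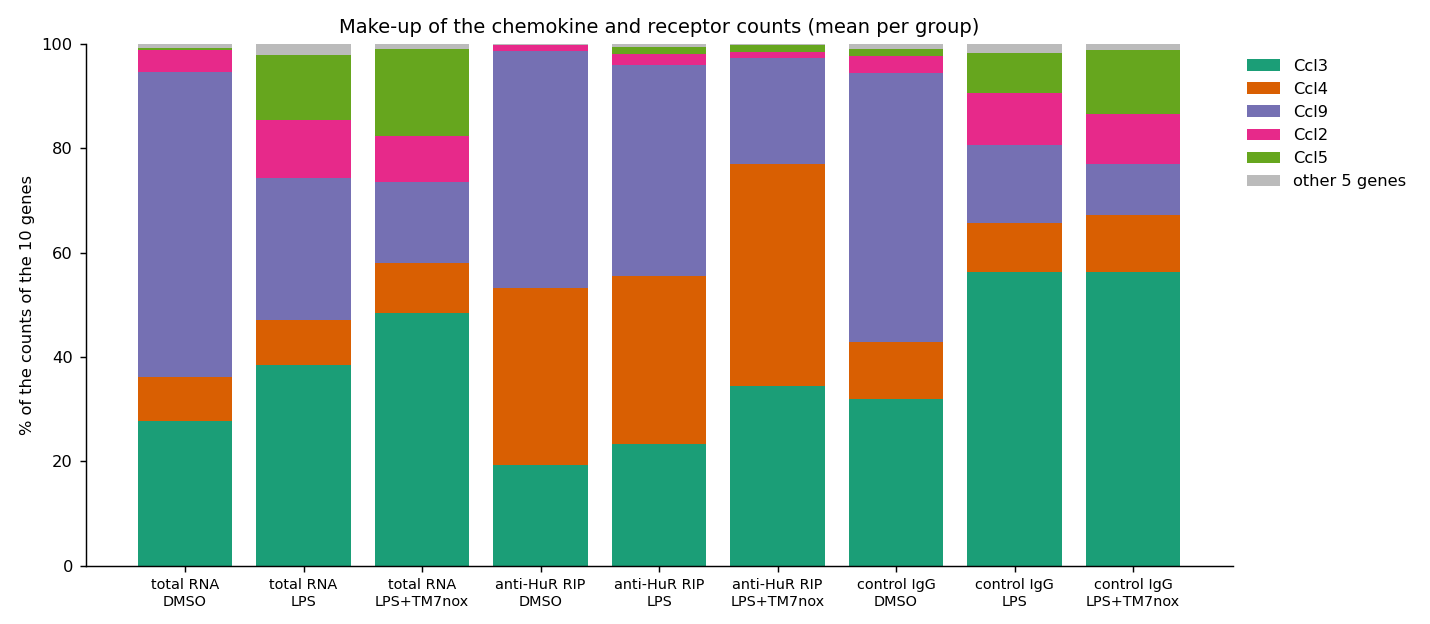
Mean share (%) of the summed counts of the 10 genes taken by Ccl3, Ccl4, Ccl9, Ccl2, Ccl5 and the other 5 genes in each assay and treatment (bars sum to 100; n = 4 libraries for total RNA and RIP, 1 for IgG). Ccl4 takes 8.67% of the counts in total RNA and 32.2% in RIP with LPS, while Ccl5 takes 12.4% and 1.47%.

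Recovery with LPS was set beside the letters of the 3′ UTR. Ccl4, with 37.1% U, and Ccl9, with 34.9%, had the highest log2 RIP over RNA, and Ccl5, with the lowest share of U and no ATTTA, had the lowest. Ccl2 had the highest share of U of the 10 and a log2 value of -0.89, and Ccl7, at 34.9% U like Ccl9, had 0.10. Ccl3, with the densest pentamers, had 0.72, and Ccl6, with 4 pentamers, had -0.97. These 10 values are a description over genes chosen by name, with no test.

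**Figure D5:**
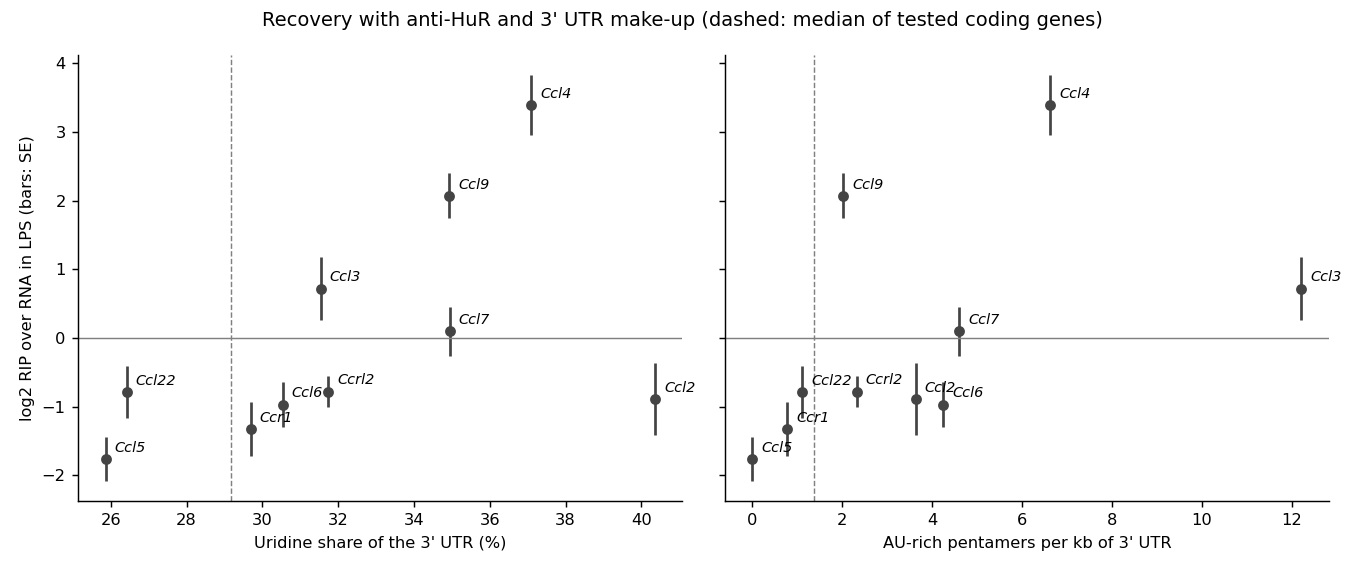
Log2 RIP over RNA with LPS (y axis, ± SE) of the 10 genes against the U share of the 3′ UTR (left, %) and the number of ATTTA pentamers per kilobase of 3′ UTR (right); dashed lines are the medians of 10990 coding genes. Ccl4 and Ccl9 lie highest at 37.1% and 34.9% U, Ccl5 lies lowest with 0 pentamers, and Ccl2 lies at -0.89 with the highest share of U.

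Promoters of 6 of the 10 genes (Ccl3, Ccl6, Ccl9, Ccl22, Ccr1 and Ccrl2) were given by RefSeq on GRCm38.p6, from 250 bases before to 50 after the start. The consensus of the κB site, the DNA element of NF-κB, was searched on both strands. It matched in Ccl9, Ccr1 and the farthest upstream of the 3 Ccrl2 promoters. The other Ccrl2 promoters and those of Ccl3, Ccl6 and Ccl22 had no match. Over all 32851 promoters, counted per promoter and not per gene, 8.46% had a match. No match says only that these letters are not in this window.

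Of 15 other CC ligands, 3 had enough counts to be tested. In total RNA with LPS, 2 of the 3 were called higher and none lower (20.2% and 21.7% of all genes), and with TM7nox added the same 2 were called lower (6.40% of all genes). Ccl12, a Ccr2 ligand from the locus of Ccl2 and Ccl7, was 0.0225 ± 0.0304 CPM in DMSO, 7.38 ± 2.96 with LPS and 1.24 ± 0.780 with TM7nox (SD, n = 4). Its log2 fold change with TM7nox was -2.55 ± 0.53 (adjusted p = 0.0057). Ccl17, which like Ccl22 acts on Ccr4, had no count in the 4 DMSO libraries and was 4.01 ± 2.22 CPM with LPS. That mean was 140.3 times a floor of 3 counts over the 4 DMSO libraries. The floor covers counting noise in DMSO only, not the spread between libraries. With TM7nox Ccl17 was 0.706 ± 0.456 CPM, a log2 fold change of -2.47 ± 0.64 (adjusted p = 0.0265). In RIP with TM7nox, where 7.61% of all genes were called lower, these 2 were as well.

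Of 16 other genes, namely CC and atypical receptors, chemerin and its receptor, 4 were tested in total RNA. With LPS, Ccr9 was called higher (adjusted p = 0.00618), with 3 counts over the 4 DMSO libraries and 54 over the 4 LPS libraries, and Ccr10 lower at -1.21 ± 0.40 (adjusted p = 0.0242). Of all genes, 20.2% were called higher with LPS and 21.7% lower. None of the 4 was called with TM7nox, where 13.8% of all genes were called in either direction.

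Among 22 genes of signalling below chemokine receptors, all tested, 10 were called higher and 4 lower with LPS in total RNA, where 20.2% of all genes were called higher and 21.7% lower (median log2 fold change 0.27, beside -0.04 over all genes). Arrb1, encoding a β-arrestin that takes receptors out of signalling, fell from 66.5 ± 14.3 to 5.59 ± 0.772 CPM, and the log2 fold change was -3.61 ± 0.20 (adjusted p = 9.92e-09). Of the 3 listed regulators that shorten G protein signals, Rgs16 rose by 3.23 ± 0.75 (adjusted p = 0.00306) and Rgs1 by 1.51 ± 0.32 (adjusted p = 0.00157), while Rgs2, at 0.19 ± 0.33 (adjusted p = 0.682), did not pass the test. Pik3r5, a subunit of the PI3Kγ complex, rose by 1.73 ± 0.20 (adjusted p = 1.19e-05) and the kinase Ptk2b by 1.04 ± 0.15 (adjusted p = 6.46e-05). With TM7nox, where 7.37% of all genes were called higher and 6.40% lower, 2 were higher, Arrb1 (1.40 ± 0.19, adjusted p = 0.000266) and Rgs1 (1.27 ± 0.31, adjusted p = 0.0155), and 4 lower, Grk2 (-0.67 ± 0.14, adjusted p = 0.00493), Rac2 (-0.61 ± 0.13, adjusted p = 0.00705), Arrb2 (-0.52 ± 0.13, adjusted p = 0.0192) and Gnai2 (-0.44 ± 0.13, adjusted p = 0.0312). Arrb1 with TM7nox was at 14.8 ± 3.29 CPM, between the other 2 treatments.

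The gene outside the family whose total RNA pattern was most like that of each member was found by Pearson correlation of log2(CPM + 0.5) over the 12 libraries, among 8247 coding genes. The 12 libraries share their treatments and scaling, and the values are descriptions. Ccl7 was most like Il1a (r = 0.994), Ccl22 most like Etv3 (0.996), Ccl9 most like Tet2 (0.991), Ccl6 most like Hlx (0.967) and Ccr1 most like Cemip2 (0.979). Ccl3 and Ccl4 were most like Usp18 (0.993 and 0.989), Ccl5 most like Tnfrsf1b (0.997), Ccrl2 most like Mndal (0.998) and Ccl2 most like Ell2 (0.994).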

How the data were processed

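Counts per gene were deposited by the authors for 27 libraries of RAW264.7 cells, in 1 table of 55483 Ensembl genes with symbols. FastQC 0.11.9, STAR, HTSeq, DESeq2 and the build GRCm39 appear in the submitters' processing notes, with no role or order. Neither the use of strand in counting nor the annotation release is stated there or in the file. The libraries were made with a stranded kit without molecular identifiers, per the labels' protocols, so the counts include PCR copies.

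The deposited counts were tested with edgeR 4.0.16 (R 4.3.3; quasi-likelihood F test, TMM, filterByExpr with a minimum count of 10) and adjusted by Benjamini-Hochberg over all genes tested, with calls at an adjusted p under 0.05. Total RNA, RIP, both together (24 libraries, with the interaction) and RIP with IgG were fitted separately. SE is the log2 fold change divided by the square root of F. Repeated symbols (114) were kept as separate genes, and 93.24% of the identifiers matched GENCODE M39 on GRCm39. The procedure was tested on simulated data. Alternatives were DESeq2 1.42.0, RLE scaling, total counts, no filter, a block, pairs of replicates and leaving out each library. With replicate pairs or a library left out, the spread was pooled over groups.

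Same-numbered libraries deviated together from their group means in all 36 pairs (r of 0.114 to 0.392 across genes, 35 of 36 highest with their own number), so the numbers pair the samples. Replicates differed beyond counting noise (chi-square per gene 38.0 to 213 over 36 pairs), so none was merged. The members, lists and tests were chosen with earlier results of these data known. Named were the 10 members, some of the genes of 3 lists that were called in total RNA, and for each member the coding gene of at least 5 CPM with the highest Pearson correlation. Rgs2, which was not called, was named after its values were seen. One gene of the receptor list is not reported here. Precision rests on 4 libraries per group, and on 1 IgG library per treatment.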

Additional observations from a re-analysis of the deposited data

Results flagged for a closer look

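In 10 of the 60 groups of 4 libraries examined, 1 library lay far from the other 3, judged by its gap to the nearest one over the whole range (Dixon's test). Chance alone gives about 1 such group in 20. In total RNA of DMSO cells, Ccl3 was 408 CPM in replicate 2 beside 87.3 to 101, Ccl5 was 4.18 in replicate 3 beside 1.27 to 1.47, and Ccr1 was 2.33 in replicate 1 beside 0.579 to 0.850. In total RNA with LPS, Ccl4 was 759 CPM in replicate 1 beside 942 to 966. In total RNA with LPS+TM7nox, Ccl2 was 854 CPM in replicate 1 beside 714 to 729, Ccl9 was 1723 in replicate 2 beside 1207 to 1285, and Ccr1 was 3.56 in replicate 2 beside 1.90 to 1.96. In RIP, Ccl5 of DMSO replicate 4 was 3.01 CPM beside 1.12 to 1.43, Ccr1 of DMSO replicate 2 was 0.562 beside 0.100 to 0.169, and Ccl4 of LPS replicate 4 was 4966 beside 10690 to 11645.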

How the results depend on the processing

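Of 1676 values under an alternative or leaving out a library, 1541 kept their direction and side of the threshold, 40 gained a call, 52 lost one and 43 changed sign. The number of members called left the range of 1.5 times the main number in 5 cases. These were LPS+TM7nox against LPS with replicates 1 and 2 alone in total RNA (0 in place of 5) and in RIP (3), the same in RIP with replicates 3 and 4 alone (3), RIP over RNA in DMSO with replicates 1 and 2 alone (3 in place of 6), and the change of recovery with LPS without the low-count filter (1 in place of 0). Leaving out 1 library at a time gave 10 to 10 members called for LPS against DMSO in total RNA and in RIP, 5 to 5 and 4 to 5 for LPS+TM7nox against LPS, 8 to 10 and 8 to 9 for LPS+TM7nox against DMSO, 5 to 6, 6 to 7 and 7 to 8 for RIP over RNA in DMSO, LPS and LPS+TM7nox, 0 to 0 for both changes of recovery, and 4 to 6 for anti-HuR against IgG. Apart from the replicate block values given beside Ccl2, Ccl3, Ccl6, Ccl7, Ccl22 and Ccr1, the block changed no other call among the members.

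Signs changed only for values that had not been called, with log2 values as follows. For LPS+TM7nox against LPS in total RNA, replicates 1 and 2 alone gave -0.13 for Ccl3, -0.0078 for Ccl5 and -0.22 for Ccrl2, and replicates 3 and 4 alone gave 0.16 for Ccl4. Leaving out each library gave -0.042 to 0.29 for Ccl3, -0.20 to 0.076 for Ccl4 and -0.025 to 0.29 for Ccrl2. In RIP, replicates 1 and 2 alone gave -0.07 for Ccl4 and -0.15 for Ccrl2, which ran from -0.096 to 0.24 with a library left out. For RIP over RNA in DMSO, Ccl22 was -0.47 with total counts, -0.52 with replicates 1 and 2 alone and -0.18 to 0.95 with a library left out, which also gave -0.72 to 0.31 for Ccl5 and -0.60 to 0.31 for Ccl2. With LPS, total counts gave -0.28 for Ccl3 and -0.94 for Ccl7, and Ccl7 was -0.026 with replicates 1 and 2 alone and -0.29 to 0.44 with a library left out. With LPS+TM7nox, Ccl7 was -0.91 with total counts, -0.052 without the filter, -0.0015 with the replicate block and -0.087 to 0.35 with a library left out. Against IgG, Ccr1 was -1.06 with total counts, -0.28 in the replicate block of number 3 and -0.45 to 0.51 with a library left out, Ccl7 was -0.39 with total counts, and Ccl2 ran from -0.68 to 0.19 with a library left out. The cause was not tested.

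Total counts in place of TMM shifted the median log2 value of all genes from -0.04 to -0.32 (LPS against DMSO) and -0.01 to -0.33 (LPS+TM7nox against DMSO) in total RNA, to -0.63 in both for RIP, to -0.72, -1.06 and -1.07 for RIP over RNA in the 3 treatments, to -0.21 for the change of recovery with LPS and to -1.13 against IgG. Genes called higher and lower went from 2500 and 2690 to 1629 and 4253, and from 2926 and 2924 to 1862 and 4560, in total RNA. In RIP they went from 3201 and 2889 to 1299 and 6428, and from 3412 and 3141 to 1463 and 6578. RIP over RNA went from 5300 and 4775 to 3776 and 7113 in DMSO and from 5031 and 4975 to 3324 and 7903 with TM7nox, and anti-HuR against IgG from 5445 and 5135 to 3012 and 9604. On that scale Ccl5 in DMSO (-1.07), Ccl2 in LPS and LPS+TM7nox (-1.94 and -2.08) and Ccl22 in LPS (-1.79) were also called lower in RIP than in total RNA, and Ccl6 (-1.61), Ccl22 (-1.55) and Ccl2 (-1.29) lower than in IgG. Genes called for LPS+TM7nox against LPS numbered 1704 in total RNA and 2212 in RIP, beside 3091 and 4577 with the block, 168 and 789 with replicates 1 and 2 alone, and 3489 and 1070 with replicates 3 and 4 alone. With replicates 1 and 2 alone, the 5190, 5850 and 6090 genes called for LPS and for LPS+TM7nox against DMSO in total RNA and for LPS in RIP became 1668, 2246 and 3392. Members at few counts, such as Ccl7, Ccl22 and Ccr1 in DMSO, have folds and recovery ratios limited by depth.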
